A study of Mus musculus with 8 samples.

Results

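The genes described here encode the protein folding and secretion machinery of the endoplasmic reticulum (ER) and the sensors of the unfolded protein response. They are 42 mouse symbols chosen by function, namely 6 stress sensors and transcription factors, 11 chaperones and co-chaperones, 5 disulfide enzymes, 7 genes of ER-associated degradation, 10 of the translocon and signal peptidase, and 3 of the COPII coat. All 42 were found among the 47069 Ensembl genes present in both deposited expression tables. RNA sequencing compared 2 populations of regulatory T cells (Tregs) sorted from lymph nodes of C57BL/6 mice aged 6 to 8 weeks. Cells of both populations came from animals with the 35EbiT reporter, read out as Thy1.1, and a GFP knock-in reporter at Blimp1, so both populations carry both reporter alleles. Ebi3-Treg cells were Thy1.1+ Blimp1-, and Blimp1-Treg cells were Thy1.1- Blimp1+. Both were CD4+ CD25+ and CD62L-low, and no treatment is named. Each population had 4 libraries, numbered 1 to 4, and the labels do not say whether they came from separate animals. The values are FPKM (fragments per kilobase of gene and megafragment of depth). The first table holds libraries 1 and 2 of each population, and the second holds libraries 3 and 4.

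The depth behind the tables was 13.3 to 25.6 megafragments in Ebi3-Treg libraries and 14.7 to 31.3 in Blimp1-Treg libraries, so that a single read adds 0.0320 to 0.0750 FPKM to a gene 1 kb long. The sort genes followed the labels. Ebi3, which encodes a chain shared by IL-35 and IL-27, was at 29.6 ± 11.7 FPKM (mean ± SD, n = 4 libraries throughout) in Ebi3-Treg and 7.67 ± 2.84 in Blimp1-Treg. Prdm1, which encodes Blimp1, was at 3.31 ± 1.0 and 94.2 ± 29.6. Foxp3, the lineage factor of Tregs, was at 182 FPKM or more in every library and Cd4 at 345 or more.

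Proteins bound for secretion or for the cell surface enter the ER through the Sec61 channel, lose their signal peptide, fold with the help of chaperones and disulfide isomerases, and leave in COPII-coated vesicles. Proteins that do not fold are pulled back to the cytosol and degraded. A build-up of unfolded protein is sensed by Ern1 (IRE1), Eif2ak3 (PERK) and Atf6, and the transcription factors Xbp1, Atf4 and cleaved Atf6 then raise the genes of this machinery. In plasma cells, Blimp1 and Xbp1 are known for enlarging the secretory apparatus, and Tregs use the same route for the cytokines and surface receptors they make.

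Many promoters of this machinery carry the ER stress response element (ERSE), in which the letters CCAAT and CCACG stand 9 bases apart and are read by NF-Y together with Atf6 or Xbp1. The 250 bases before the start site are printed for 5 genes from RefSeq (GRCm38.p6), 5′ to 3′ on the gene's strand, with motif matches in capitals. Of these, 4 hold a searched motif there and passed the test that pairs libraries by number, described below, and Hspa5, the classical carrier of the element, was added after its values were seen. The windows are chr2:34771840-34772089 on the plus strand for Hspa5, chr10:86705445-86705694 on the minus strand for Hsp90b1, and chr12:17266339-17266588, chr14:118937682-118937931 and chr3:123267246-123267495, all on the plus strand, for Pdia6, Dnajc3 and Sec24d.
Hspa5: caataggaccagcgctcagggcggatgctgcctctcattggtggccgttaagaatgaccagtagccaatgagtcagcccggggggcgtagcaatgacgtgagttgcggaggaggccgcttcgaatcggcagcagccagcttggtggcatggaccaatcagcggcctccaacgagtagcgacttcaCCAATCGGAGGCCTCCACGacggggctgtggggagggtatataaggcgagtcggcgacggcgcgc
Hsp90b1: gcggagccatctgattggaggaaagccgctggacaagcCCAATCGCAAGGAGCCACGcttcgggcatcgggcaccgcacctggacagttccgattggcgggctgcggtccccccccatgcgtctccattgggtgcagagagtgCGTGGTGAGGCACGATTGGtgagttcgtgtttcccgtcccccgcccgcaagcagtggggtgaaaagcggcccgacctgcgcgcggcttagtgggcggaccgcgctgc
Pdia6: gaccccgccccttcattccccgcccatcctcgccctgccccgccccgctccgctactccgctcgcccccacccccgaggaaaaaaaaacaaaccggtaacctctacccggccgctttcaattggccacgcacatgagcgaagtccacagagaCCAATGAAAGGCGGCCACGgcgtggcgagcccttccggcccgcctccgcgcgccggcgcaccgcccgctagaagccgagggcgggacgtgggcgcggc
Dnajc3: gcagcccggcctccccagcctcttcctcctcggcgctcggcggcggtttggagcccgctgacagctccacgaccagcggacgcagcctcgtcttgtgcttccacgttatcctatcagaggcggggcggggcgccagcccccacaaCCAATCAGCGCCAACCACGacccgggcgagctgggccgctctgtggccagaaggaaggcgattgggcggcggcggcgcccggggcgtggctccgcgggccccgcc
Sec24d: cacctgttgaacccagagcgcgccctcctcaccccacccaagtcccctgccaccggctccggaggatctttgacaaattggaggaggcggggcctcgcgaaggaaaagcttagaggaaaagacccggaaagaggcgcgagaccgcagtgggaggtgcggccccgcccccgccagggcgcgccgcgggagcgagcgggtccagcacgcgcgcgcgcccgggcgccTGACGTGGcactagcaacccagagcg

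Hspa5, Pdia6 and Dnajc3 each show 1 ERSE, and Hsp90b1 shows 2, 1 on the printed strand and 1 on the opposite strand. Sec24d, which has no ERSE in its window, shows the unfolded protein response element TGACGTGG, a site known for Xbp1. RefSeq promoter windows of 300 bases (250 before and 50 after the start) were at hand for 34 of the 42 genes and were searched on both strands. The ERSE letters were in 8 of the 34 (Calr, Canx, Creld2, Dnajc3, Hsp90b1, Hspa5, Pdia6 and Syvn1), or 23.5%, against 0.137% of all genes in the promoter table. The element is known from the promoters of this machinery, so that contrast is a description and not a test. ERSE-II (ATTGG and CCACG separated by 1 base) was in 2 (Dnajb11 and Herpud1), or 5.88% against 0.0444%, and TGACGTGG in Sec24d alone, or 2.94% against 0.714%. TGATGCAA, an element bound by C/EBP and ATF dimers, was in Herpud1, or 2.94% against 1.03%. Letters of the Blimp1 site, AGNGAAAG, were in 3 (Derl2, Sec61b and Syvn1), or 8.82% against 9.91% of all genes. No 2 matches overlapped each other. These matches are letters in a window and were not tested for binding. No window was at hand for Atf6, Hyou1, Manf, Ero1l, Derl1, Sec61a1, Ssr2 and Sec11c.

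All 42 genes were expressed, at 2.32 to 1866 FPKM in single libraries, and all 42 passed the filter for testing (1 FPKM or more in 4 or more libraries). Their median level, 84.8 FPKM, compares with 16.7 over the 12273 genes tested. The most abundant was Hspa5 (BiP), the Hsp70 chaperone of the ER, followed by the disulfide isomerase Pdia3 and the lectin chaperone Calr. On average 18 genes were at 100 FPKM or more and 5 were under 20, namely the sensors Ern1 and Atf6 with Ssr1, Hyou1 and Ero1l. FPKM is a level per length, so these genes can be set beside each other only roughly. In the libraries numbered 2 the values still followed exon length, as described below.

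Most genes of the secretory machinery did not pass the test between the populations, and those that did with libraries paired were mostly lower in Ebi3-Treg. In the fit with population and table as terms, 0 of the 42 genes passed the adjusted threshold of 0.05 (limma on log2(FPKM + 1), with 6 genes at an unadjusted p under 0.05), against 6.29% of all genes tested. When libraries were paired by their number, since same-numbered libraries shared their deviations from the population means, 11 of 42 passed, 10 of them lower and 1 higher in Ebi3-Treg. That is 26.2% of the genes against 22.4% of all genes, with 23.8% against 8.94% lower and 2.38% against 13.5% higher. The lower genes were Hsp90b1, Pdia4, Pdia6, Ssr1, Atf6, Sec24d, Dnajb11, Manf, Derl1 and Spcs2, and the higher one was Dnajc3. With each library scaled by median ratios, the share of lower calls among all genes called in the paired fit moved from 39.9% to 51.3%, and the median of all genes shifted by -0.06 on the log2 scale.

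The median log2 fold change (Ebi3-Treg minus Blimp1-Treg) of the 42 genes was -0.16, against 0.07 for all genes tested, and 31 of 42 (73.8%) were below 0 against 40.8%. The median size without sign was 0.20 against 0.22, and 6 genes (14.3%) reached 0.5 in either direction against 20.3% of all genes. Lower values in Ebi3-Treg in all 4 numbered pairs were found for 20 of the 42 (47.6%) against 16.3% of all genes, and higher values in all 4 for Dnajc3 and Hspa5 (4.76%) against 28.1%. Within both tables the libraries of the populations did not overlap for 5 genes that were lower (Hsp90b1, Canx, Pdia4, Derl1 and Ssr1), against 7.3% of all genes, and for Dnajc3, which was higher, against 11.7%. Summed over the 42 genes, FPKM was 5733 to 8309.6 in Ebi3-Treg and 6341 to 9482 in Blimp1-Treg, so the sums overlapped. In such bulk samples, fewer cells of a type and less RNA per cell cannot be told apart.

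**Figure D1:**
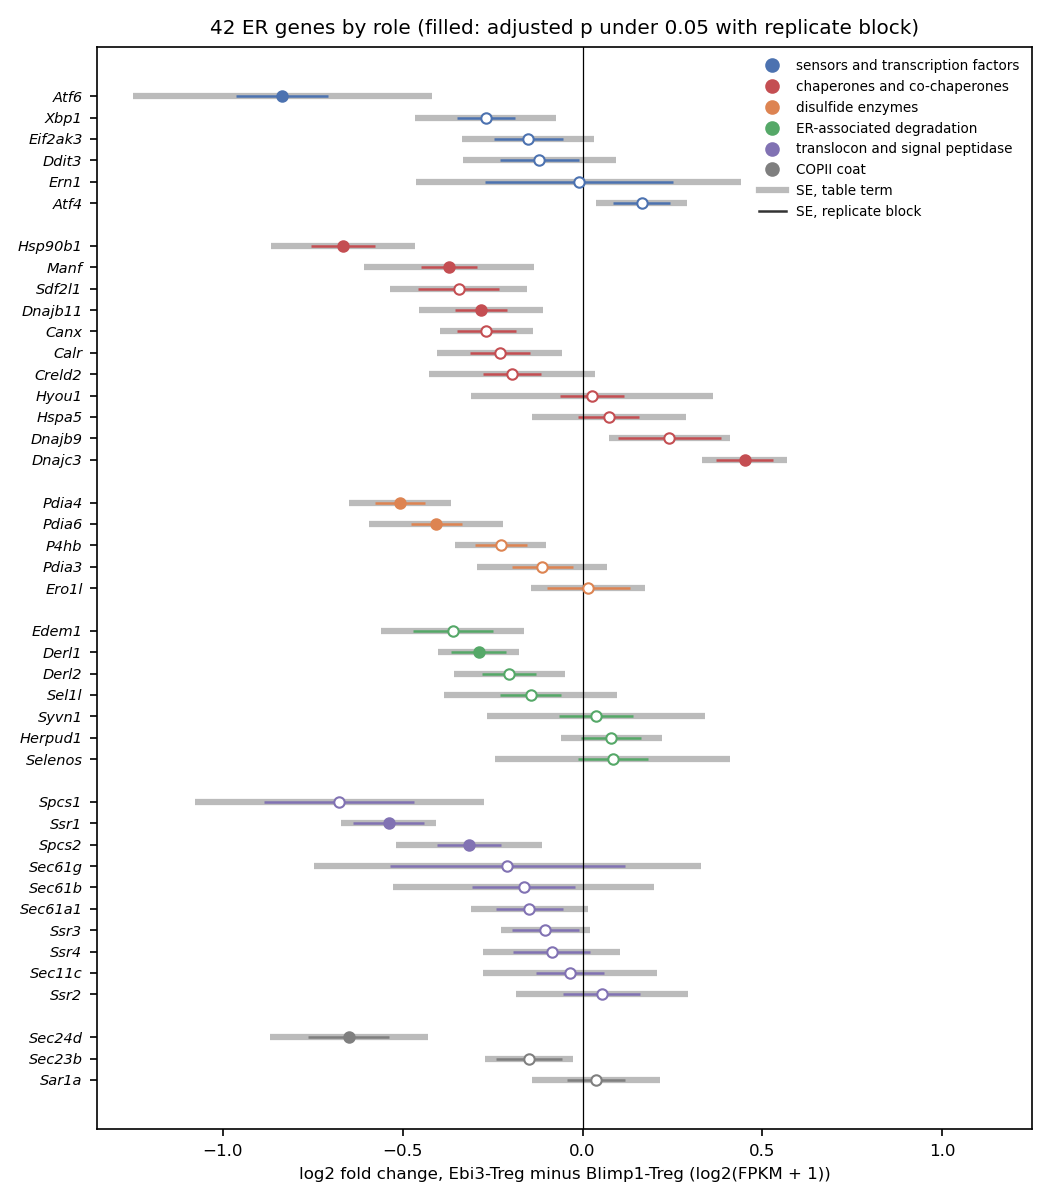
Log2 fold change (Ebi3-Treg minus Blimp1-Treg, on log2(FPKM + 1)) of the 42 genes by role. Grey bars are the standard error in the fit with a table term, coloured bars the standard error with the replicate block, and filled points the 11 genes that passed with the block; 10 of them lie left of 0 and Dnajc3 right of it.

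The calls depend on how library number is handled and on the libraries numbered 1 and 2. Numbers 3 and 4 did not pair within their table, and with those libraries unpaired while 1 and 2 stayed paired, 14 genes passed (13 lower, 1 higher), against 23.9% of all genes. Without both libraries numbered 2 and with no pairing, 11 of 42 passed against 16% of all genes, and without both numbered 1, 8 against 16.1%. With the pairing, 7 passed without both libraries numbered 1, against 13.1% of all genes, and 7 without both numbered 4, against 13.8%. Hsp90b1, Pdia4, Pdia6, Ssr1, Atf6 and Sec24d (lower) and Dnajc3 (higher) passed in all 9 paired settings that were run. The share of all genes that passed in all 9 was not counted, so these 7 cannot be set against a background.

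Among the 6 sensors and transcription factors, Atf6 was the one that differed in the paired fit. Atf6, the membrane-bound factor released by cleavage in the Golgi, was at 11.3, 2.70, 9.26 and 8.39 FPKM in Ebi3-Treg 1 to 4 and at 16.1, 5.92, 20.3 and 16.6 in Blimp1-Treg 1 to 4. It was lower in Ebi3-Treg at every number, and both libraries numbered 2 were the lowest of their population, so the populations overlapped in the first table and were apart in the second. The log2 fold change was -0.83 (SE 0.41, adjusted p = 0.347), with an SE of 0.13 and adjusted p = 0.00516 in the paired fit.

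Xbp1, the factor made active by IRE1 splicing, was at 210.0, 359.8, 182 and 201 FPKM in Ebi3-Treg and at 288, 408, 220.5 and 226 in Blimp1-Treg. It lay lower in Ebi3-Treg at each number while the populations overlapped, at a log2 fold change of -0.27 (adjusted p = 0.579, and 0.0541 in the paired fit). It passed with 3 and 4 unpaired (adjusted p = 0.0374). FPKM per gene does not separate spliced from unspliced Xbp1.

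The other sensors did not pass in either fit. Ern1, the kinase and nuclease IRE1, was at 12.1, 2.57, 3.15 and 3.24 FPKM in Ebi3-Treg and at 5.90, 2.32, 4.54 and 5.69 in Blimp1-Treg, with library 1 of Ebi3-Treg far above the other 3. Eif2ak3, the PERK kinase that slows translation, was at 23.9, 16.3, 24.5 and 18.8 FPKM against 24.2, 17.8, 26.0 and 24.7. Atf4, the factor translated under PERK, was at 165, 197, 124 and 145 against 144, 167, 126 and 122. These 3 genes overlapped between the populations, and for Ern1 the difference had opposite signs in the tables (log2 fold change 0.52 in libraries 1 and 2 and -0.54 in 3 and 4). Ddit3 (CHOP), a factor linked to death under lasting stress, was at 28.3, 45.1, 11 and 14.1 FPKM in Ebi3-Treg and 29.0, 45.6, 15.4 and 13.9 in Blimp1-Treg. It tracked the library number far more than the population.

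The chaperones split, with Hsp90b1 lower, Dnajc3 higher and Hspa5 nearly equal between the populations. Of 11, 3 were lower and 1 higher in the paired fit, and none passed without pairing. Hsp90b1 (GRP94), the Hsp90 of the ER that folds integrins and Toll-like receptors, was at 141, 202, 133 and 135 FPKM in Ebi3-Treg and at 219.7, 371, 181 and 220.1 in Blimp1-Treg. Mean FPKM was 152 ± 33.0 against 248 ± 83.9, or 1.63 times higher in Blimp1-Treg, and the only overlap was Ebi3-Treg 2 above Blimp1-Treg 3, across the tables. The log2 fold change was -0.67 (SE 0.20, adjusted p = 0.107), with an SE of 0.09 and adjusted p = 0.00325 in the paired fit. Exons of other genes overlap 15.7% of its exon length, and reads of such genes cannot be told apart because strand use in the counting is not given.

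Dnajc3 (P58IPK), a co-chaperone that binds unfolded protein and is also known to restrain PERK, went the other way. It was at 49.3, 47.5, 45.7 and 49.1 FPKM in Ebi3-Treg and at 32.5, 37.1, 33.3 and 36.3 in Blimp1-Treg. Every Ebi3-Treg library was above every Blimp1-Treg library, at means of 47.9 ± 1.66 and 34.8 ± 2.24. Its log2 fold change was 0.45 (SE 0.12, adjusted p = 0.0659), with an SE of 0.08 and adjusted p = 0.00873 in the paired fit.

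Hspa5 was at 1113, 1866, 1304 and 1478 FPKM in Ebi3-Treg and at 1096, 1758, 1289 and 1317 in Blimp1-Treg. The means of 1440.2 ± 321 and 1365 ± 280 FPKM overlapped widely, although each pair was slightly higher in Ebi3-Treg. Its log2 fold change was 0.07 (SE 0.21, adjusted p = 0.935, and 0.587 in the paired fit), which was -0.0004 after median-ratio scaling. Hsp90b1 and Hspa5 thus share the ERSE letters printed above and differed in their values. Over the 8 genes with that element, log2 fold changes ran from -0.67 to 0.45 with a median of -0.21, and in the paired fit 2 were lower, 1 was higher and 5 did not pass.

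Dnajb11 (ERdj3), an Hsp40 partner of BiP, was at 106, 158, 104 and 109 FPKM in Ebi3-Treg and at 137, 196, 126 and 123 in Blimp1-Treg, and was lower in every pair (log2 fold change -0.28, adjusted p = 0.476, and 0.0325 in the paired fit). Manf, a secreted ER stress factor, was at 78.7, 144, 52.3 and 51.6 FPKM against 109, 189, 60.6 and 68.9, and was also lower in every pair (-0.37, adjusted p = 0.497, and 0.0159 in the paired fit). Both genes were highest in the libraries numbered 2, and neither was called in every paired setting. Canx, the membrane lectin chaperone, was at 157, 120.1, 142 and 161 FPKM in Ebi3-Treg and 167, 163, 176 and 190.2 in Blimp1-Treg. No Canx library of one population reached into the other, yet its log2 fold change of -0.27 did not pass (adjusted p = 0.331, and 0.0595 in the paired fit).

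Dnajb9 (ERdj4), a co-chaperone that is a known Xbp1 target, was at 58.1, 56.5, 62.5 and 70.4 FPKM in Ebi3-Treg and at 49.2, 69.1, 45.7 and 46.9 in Blimp1-Treg. Blimp1-Treg 2 was the one Blimp1-Treg library that reached the Ebi3-Treg range. Dnajb9 had a log2 fold change of 0.24 over all libraries (adjusted p = 0.556, and 0.273 in the paired fit), -0.03 in libraries 1 and 2, and 0.51 in libraries 3 and 4, where it passed alone (adjusted p = 0.0352). The other chaperones, Calr, Sdf2l1, Creld2 and Hyou1, had log2 fold changes of -0.23, -0.34, -0.20 and 0.03, and none passed in either fit.

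**Figure D2:**
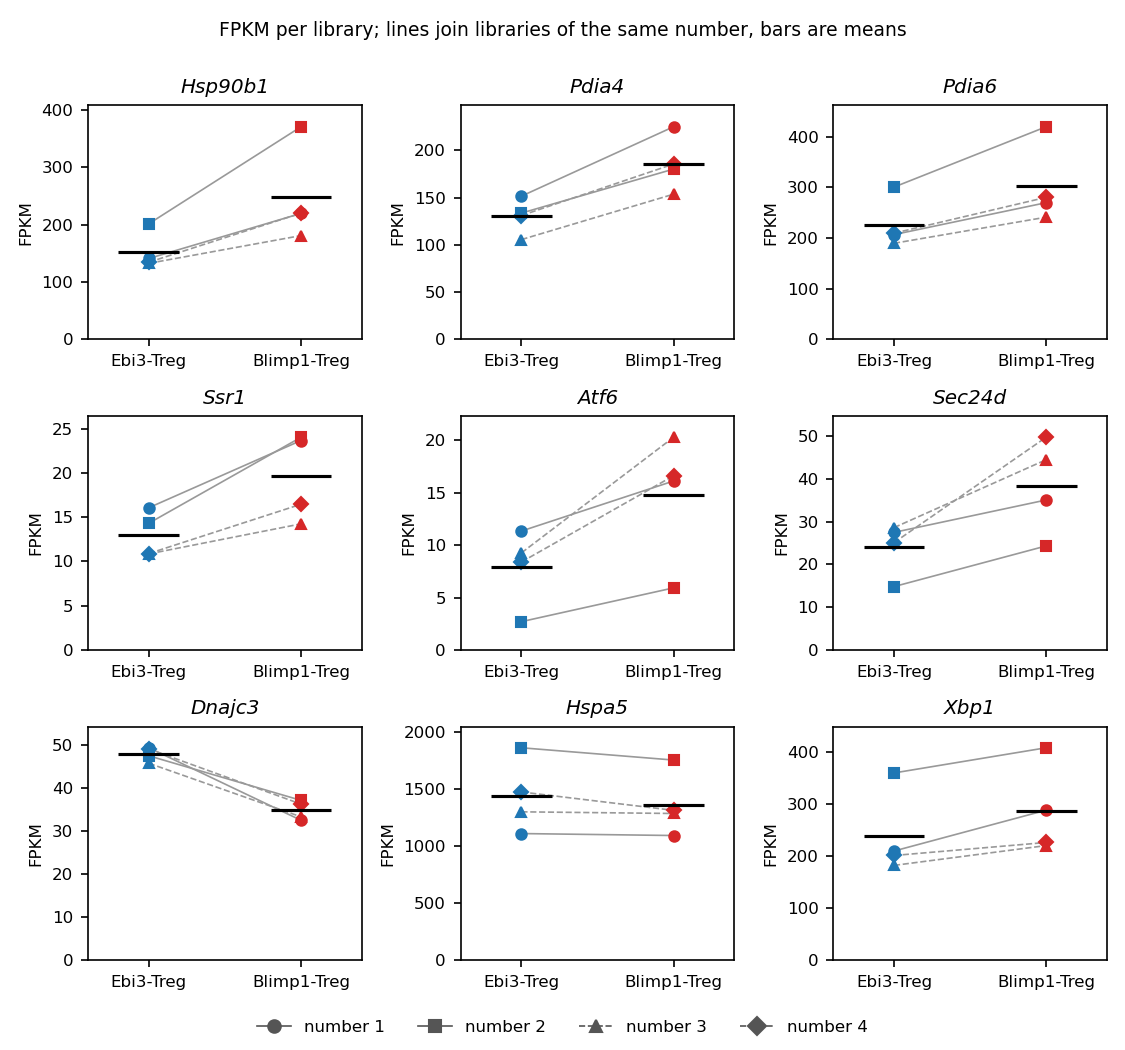
FPKM in each library for 9 genes, with lines joining libraries of the same number, solid for the first table (1 and 2) and dashed for the second (3 and 4), and black bars for the mean of 4. Hsp90b1, Pdia4, Pdia6, Ssr1, Atf6, Sec24d and Xbp1 are lower in Ebi3-Treg at each number, Dnajc3 is higher at each, and Hspa5 hardly differs.

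Of the 5 disulfide enzymes, Pdia4 and Pdia6 were lower in Ebi3-Treg in the paired fit. Pdia4 (ERp72) was at 152, 134, 106 and 131 FPKM in Ebi3-Treg and at 225, 180.2, 154 and 186 in Blimp1-Treg. Every Blimp1-Treg library was above every Ebi3-Treg library, though Ebi3-Treg 1 and Blimp1-Treg 3 nearly met. On the log2 scale Pdia4 differed by -0.51 (SE 0.14, adjusted p = 0.0824), with an SE of 0.07 and adjusted p = 0.00349 in the paired fit. After median-ratio scaling Pdia4 passed without pairing too (adjusted p = 0.0478).

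Pdia6 (P5), an isomerase that works with BiP, was at 207, 300.3, 189.5 and 209 FPKM in Ebi3-Treg and at 269.6, 419, 241 and 280.1 in Blimp1-Treg. It was lower in Ebi3-Treg at each number, with overlap through Ebi3-Treg 2. Its log2 fold change was -0.41 (SE 0.19, adjusted p = 0.303), with an SE of 0.07 and adjusted p = 0.00812 in the paired fit. Pdia3 (ERp57, partner of the lectin chaperones), P4hb (the founding isomerase) and Ero1l, the oxidase that recharges the isomerases, had log2 fold changes of -0.11, -0.23 and 0.02 and did not pass in either fit.

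In ER-associated degradation, Derl1 was the one gene of 7 that was lower in the paired fit. Derl1, a derlin of the retrotranslocation channel, was at 66.8, 74.1, 67.6 and 74.2 FPKM in Ebi3-Treg and at 84.9, 86.2, 90.3 and 84.7 in Blimp1-Treg. The populations did not overlap, at means of 70.7 ± 4.05 and 86.5 ± 2.58. Derl1 differed by -0.29 on the log2 scale (SE 0.11, adjusted p = 0.206, and 0.0368 in the paired fit). Edem1, the lectin that marks misfolded glycoproteins, was at 112, 77.4, 138 and 131 FPKM against 175, 111, 142 and 156, with a log2 fold change of -0.36 (adjusted p = 0.409, and 0.0589 in the paired fit). The ligase Syvn1 and its partner Sel1l, with Herpud1, Derl2 and Selenos of the same complex, ranged from -0.20 to 0.08 and did not pass.

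Of the 10 genes of the translocon and signal peptidase, Ssr1 and Spcs2 were lower in the paired fit. Ssr1, the alpha subunit of the translocon-associated protein complex, was at 16.1, 14.3, 10.9 and 10.9 FPKM in Ebi3-Treg and at 23.7, 24.0, 14.3 and 16.5 in Blimp1-Treg. Both tables show it apart, at a lower level in the second. The log2 fold change was -0.54 (SE 0.13, adjusted p = 0.0549), with an SE of 0.10 and adjusted p = 0.00992 in the paired fit. Without pairing Ssr1 crossed the threshold at a pseudocount of 0.01 (adjusted p = 0.0477) and after median-ratio scaling (0.0424). The other subunits of the complex, Ssr2, Ssr3 and Ssr4, had log2 fold changes of 0.05, -0.10 and -0.09 and did not pass.

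Spcs2, a subunit of signal peptidase, was at 122, 211, 122 and 133 FPKM in Ebi3-Treg and at 181, 262, 144 and 148 in Blimp1-Treg (log2 fold change -0.32, adjusted p = 0.505, and 0.0449 in the paired fit). Spcs1, its partner subunit, was at 84.2, 200.1, 63.6 and 49.4 FPKM against 178, 488, 63.5 and 63.4. Spcs1 differed by -1.18 on the log2 scale in libraries 1 and 2 and by -0.18 in libraries 3 and 4, with overlap between the populations in both. It did not pass over all (-0.68, adjusted p = 0.457, and 0.0598 in the paired fit). Exons of another gene overlap 16.3% of its exon length. Sec61a1, the channel itself, was at -0.15 on the log2 scale and did not pass. The small Sec61 subunits Sec61b and Sec61g were at -0.47 and -0.86 on the log2 scale in libraries 1 and 2 and at 0.14 and 0.45 in libraries 3 and 4, and neither passed in the fits over all libraries.

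Among the 3 COPII genes, Sec24d was lower in Ebi3-Treg in the paired fit. Sec24d, a cargo-binding subunit of the coat, was at 27.5, 14.8, 28.6 and 25.1 FPKM in Ebi3-Treg and at 35.1, 24.3, 44.5 and 49.8 in Blimp1-Treg. The populations were apart in the second table and overlapped in the first, where both libraries numbered 2 were low. On the log2 scale Sec24d differed by -0.65 (SE 0.22, adjusted p = 0.149), with an SE of 0.11 and adjusted p = 0.00833 in the paired fit. Without Ebi3-Treg 1, it was the 1 member of the 42 to pass without pairing (-0.85, adjusted p = 0.0316). Sec23b, the coat subunit that binds Sec24 proteins, and the GTPase Sar1a were at -0.15 and 0.04 and did not pass.

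Each table was also fitted alone, with the libraries of the other left out. In libraries 3 and 4, 4 genes passed, with Hsp90b1, Atf6 and Sec24d lower against 5.47% of all genes and Dnajb9 higher against 5.51%. Leaving out any 1 of the 4 libraries there leaves a population with 1 library, so no count is given for those fits. In libraries 1 and 2 alone, 0 of the 42 passed and 0 had an unadjusted p under 0.05, against 0% of all genes passing (707 of them at an unadjusted p under 0.05). With pairing, 13 of the 42 passed there against 23.3% of all genes, in a fit that leaves 1 residual degree of freedom. The direction was the same in both tables for 30 of 42 genes, and the share of all genes was not counted. The difference between the tables was tested itself, and 0 of the 42 passed (limma, none at an unadjusted p under 0.05), against 0% of all genes, where 203 had an unadjusted p under 0.05.

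**Figure D3:**
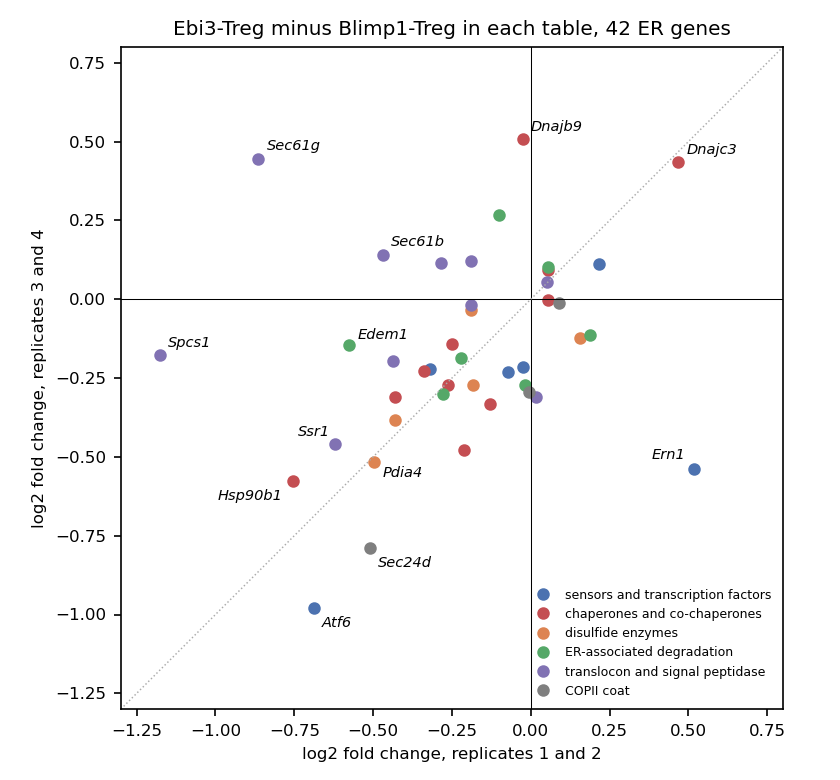
Log2 fold change (Ebi3-Treg minus Blimp1-Treg) of the 42 genes in libraries 1 and 2 (horizontal) against libraries 3 and 4 (vertical), coloured by role, with the dotted line at equal values. Hsp90b1, Pdia4, Ssr1, Atf6 and Sec24d lie low in both, Dnajc3 high in both, and Spcs1, Sec61g, Sec61b and Ern1 lie far from the line.

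Ratios between partner genes within a library do not depend on how that library was scaled. In all 10 were computed, chosen after the values were seen, and they are given as a description: 3 did not overlap between the populations and 7 did. The ratio of Hsp90b1 to Hspa5 was 0.127, 0.108, 0.102 and 0.0911 in Ebi3-Treg and 0.20, 0.211, 0.140 and 0.167 in Blimp1-Treg, with no overlap. Pdia6 to Hspa5 was 0.142 to 0.186 against 0.187 to 0.246, which just did not overlap. Dnajc3 to Hsp90b1 was 0.235 to 0.365 against 0.10 to 0.184, again with no overlap. Pdia4 to Pdia3 was 0.112 to 0.192 against 0.138 to 0.240, higher in Blimp1-Treg at each number though with overlap between the populations. Dnajc3 to Hspa5, Pdia4 to Hspa5, Sec24d to Sec23b, Ssr1 to Ssr3, Atf6 to Eif2ak3 and Dnajb9 to Dnajb11 overlapped as well. A ratio shows that 2 genes changed unequally and not which of them changed.

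**Figure D4:**
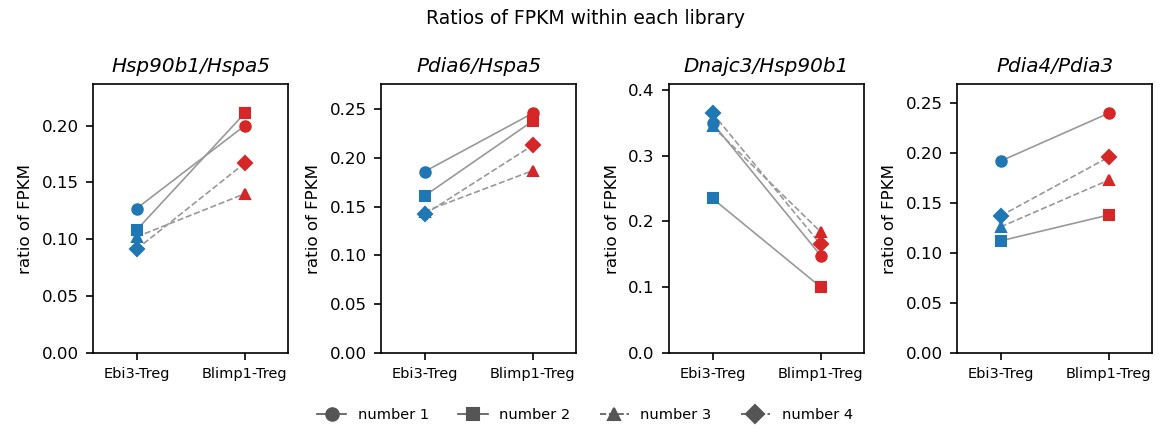
Ratios of FPKM between partner genes in each library, with lines joining libraries of the same number, solid for the first table and dashed for the second. Hsp90b1/Hspa5 and Pdia6/Hspa5 are lower in every Ebi3-Treg library, Dnajc3/Hsp90b1 is higher in every one, and Pdia4/Pdia3 overlaps between the populations.

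The levels of many of these genes followed the library number. The libraries numbered 2 were the 2 highest of all 8 libraries for 22 of the 42 genes, with a median exon length of 2988 bases. They were the 2 lowest of all 8 for 9 genes, with a median of 6732 bases. Across the 42 genes, Spearman's rho between exon length and the log2 ratio of the libraries numbered 2 to the other 6 was -0.68. These genes share the same 8 libraries, and the value is a description. Between exon length and the population difference rho was -0.09. The short Sec61g, Spcs1 and Sec61b were among the highest in the libraries numbered 2, and the long Atf6 and Ern1 among the lowest. The part of this pattern in the results without pairing was not tested beyond the values without both libraries numbered 2 given above.

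**Figure D5:**
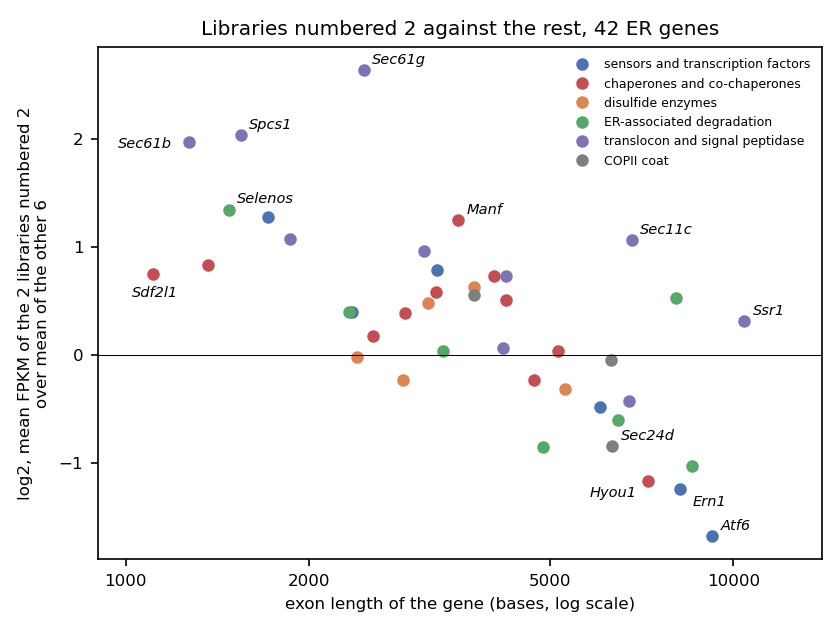
Log2 ratio of the mean FPKM of both libraries numbered 2 to the mean of the other 6 (vertical) against exon length in bases (horizontal, log scale) for the 42 genes, coloured by role. Sec61g, Spcs1 and Sec61b lie above 0 and Atf6, Ern1 and Hyou1 below, and rho is -0.68.

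Other transcripts moved with the populations as well. All 10 cell cycle genes listed had log2 fold changes below 0, against 40.8% of all genes tested. In the fit without pairing 7 of the 10 were lower in Ebi3-Treg, against 359 of all 12273 genes tested. Among them were Rrm2 at -1.76, Birc5 at -1.65 and Ccnb2 at -1.52 (limma, adjusted p = 0.00124, 0.00211 and 0.00406). The summed level of the 10 genes was 244 to 545 FPKM in Ebi3-Treg and 403 to 797 in Blimp1-Treg, lower at every number. The part of the cell cycle genes in the ER gene differences was not tested. All 6 T cell and Treg markers listed also had log2 fold changes below 0, with a median of -0.185 against -0.16 for the 42 ER genes. In the paired fit 2 of the 6 were lower (33.3% against 8.94% of all genes). These markers summed to 2735, 3865, 2652 and 2978 FPKM in Ebi3-Treg and to 4170, 5894, 3489 and 3643 in Blimp1-Treg. Whether the ER genes and these markers differ for the same reason was not tested. Markers of B and plasma cells, which are rich in this machinery, were searched for with a list of 15 genes, of which none was at 0 in every library and Tnfrsf17 was at 0 in some. The summed level was 1219 to 1958 FPKM in Ebi3-Treg and 1813 to 2412 in Blimp1-Treg, more of it from Ighm than from the other 14 genes together in every library. Without Ighm it was 660, 65.4, 59.8 and 56.3 FPKM in Ebi3-Treg and 458, 97.7, 126 and 198 in Blimp1-Treg. Jchain was at 14.5, 0.292, 0.844 and 0.824 FPKM in Ebi3-Treg and at 12.5, 0.247, 6.02 and 11.8 in Blimp1-Treg. Igkc was at 402, 11.2, 17.8 and 8.68 FPKM against 274, 59.5, 91.9 and 149, and was thus higher in Blimp1-Treg at every number but 1. The part of these markers in the ER gene differences was not tested. Of other cells, 10 myeloid genes summed to 15.5 to 128 FPKM in Ebi3-Treg and 5.99 to 37.3 in Blimp1-Treg, higher in Ebi3-Treg at every number. The sums were 11.4 to 63.4 and 10.6 to 36.4 for 6 CD8 and NK genes, and 53.4 to 80.1 and 66.5 to 75.2 for 7 stromal genes. No marker on these lists was at 0 in every library, and their part was not tested.

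Around the 42 genes, 121 of 132 other listed genes of the same pathways passed the filter, with a median log2 fold change of -0.03. Without pairing, 4 of the 121 were higher and 1 lower in Ebi3-Treg (limma), against 413 and 359 of all 12273 genes tested. In the paired fit 17 (14.0%) were higher and 8 (6.61%) lower, near the shares of all genes tested (13.5% and 8.94%).

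Among 17 tested genes of ER-associated degradation outside the 42, Derl3 and Ubac2 were higher in Ebi3-Treg without pairing, and none was lower. Of all 12273 genes tested, 413 were higher and 359 lower in that fit. Derl3, a derlin that is also listed as a plasma cell marker, was at 9.77, 7.90, 10.0 and 8.37 FPKM in Ebi3-Treg and at 1.91, 1.61, 1.87 and 2.85 in Blimp1-Treg. Every Ebi3-Treg library was above every Blimp1-Treg library, the opposite order to its relative Derl1 (log2 fold change 1.72, SE 0.18, adjusted p = 0.00207). Ubac2, a derlin-related membrane protein, was at 96.9 ± 8.16 FPKM against 63.8 ± 6.60 (0.60, adjusted p = 0.0374). Its adjusted p was 0.0735 to 0.158 when Ebi3-Treg 2, 3 or 4, or Blimp1-Treg 1, 3 or 4, was left out alone. Ube2j1, the ubiquitin-conjugating enzyme of the ER membrane, passed with pairing alone (0.33, adjusted p = 0.236, and 0.0186 in the paired fit).

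Of 22 tested genes of the integrated stress response, which runs through Atf4, 2 were higher and none lower without pairing, with a median of 0.12. The counts over all 12273 genes tested were 413 higher and 359 lower. Ppp1r15a (GADD34), the phosphatase subunit that reverses the translation block, was at 671 ± 102 FPKM in Ebi3-Treg and 407 ± 43.4 in Blimp1-Treg (log2 fold change 0.71, SE 0.13, adjusted p = 0.0195). Asns, asparagine synthetase, was at 14.8 ± 4.83 against 7.39 ± 1.59 FPKM (0.88, SE 0.19, adjusted p = 0.036). The call of Ppp1r15a was lost without library 3 or 4 of either population (adjusted p = 0.0706 to 0.0979), and that of Asns without any single library but Ebi3-Treg 1 (0.0504 to 0.118), while neither gene overlapped within a table. Mthfd2, a mitochondrial folate enzyme, was at 0.63 (adjusted p = 0.0583, and 0.00347 in the paired fit). In the paired fit 7 of the 22 (31.8%) were higher, against 13.5% of all genes. Another 2 (9.09%) were lower (Cebpg and Eif4ebp1, named after their values were seen), against 8.94% of all genes.

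Other ER folding genes had 0 of 21 tested past the threshold without pairing, and 4 higher and 1 lower in the paired fit, with a median of -0.02. Sil1, the exchange factor of BiP, was at 0.53 (adjusted p = 0.0579, and 0.00669 in the paired fit), Rcn1, a calcium-binding ER protein, at 0.49 (0.191 and 0.0211) and Hspa13 at -0.37 (0.259 and 0.0716). Translocation and glycosylation genes had 0 of 23 without pairing and 1 in each direction with it, namely Stt3b, a catalytic subunit of oligosaccharyltransferase (0.71, adjusted p = 0.197, and 0.00567 in the paired fit), and Sec62 (-0.37, named after its values were seen). Tram1 and Krtcap2 were at -0.22 and -0.49 and did not pass. ER to Golgi transport genes had 0 of 32 without pairing and 2 in each direction with it. These were Mcfd2, a cargo receptor subunit (0.34, paired adjusted p = 0.0226), Preb, the exchange factor of Sar1 (0.30, 0.0270), Surf4, a cargo receptor (-0.24, 0.0468), and Sar1b (-0.45, named after its values were seen).

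Of 7 tested regulators known from plasma cells, Prdm1, the sort gene itself, was the one lower in Ebi3-Treg without pairing (log2 fold change -4.43, adjusted p = 0.000155). Irf4, a factor of both plasma cells and effector Tregs, was at -0.45 (adjusted p = 0.630, and 0.0218 in the paired fit), and Txndc5, a disulfide isomerase abundant in plasma cells, at -0.29 (0.493 and 0.0494). Beside a Prdm1 level that differed by -4.43 on the log2 scale, the difference furthest from 0 among the 42 genes was that of Atf6, at -0.83.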

How the data were processed

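Regulatory T cells of 8 libraries, 4 per population, were sequenced after CD4 enrichment with magnetic beads and sorting, with a low-input SMART-Seq kit, per the labels' protocols. The authors deposited FPKM values in 2 tables. The submitters' processing notes name the build mm9, HTSeq 0.6.1, TopHat2 2.0.12 and Bowtie2 2.2.3, but what each tool did, the annotation used and how reads were counted is not given in the sources used here. Rows with no Ensembl identifier (640 and 612) were dropped, and symbols came from a GENCODE table. The files name no build beyond the notes, so coordinates are given only for the RefSeq promoters. Depth was read from the steps of the low deposited FPKM values. With reference exon lengths, 34.9% to 45.6% of values were whole reads within 0.01, too few for a count test.

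Genes that reached 1 FPKM in 4 or more libraries (12273) were fitted as log2(FPKM + 1) with limma 3.58.1 (R 4.3.3) on terms for population and table, with Benjamini-Hochberg adjustment over all of them, two-sided, at 0.05. The log2 scale with a pseudocount of 1 understates changes of low genes. As the labels name no separate animals, a p-value here sets the difference against spread between libraries that may be technical only. Same-numbered libraries shared their deviations from the population means (r = 0.62, 0.89, 0.53 and 0.54 for numbers 1 to 4, across genes), so the paired fit, with replicate number as the block, is given beside it. This pairing comes from the data, not the labels. Relative to the population means within each table, r was 0.85 for numbers 1 and 2 and -0.08 for 3 and 4. Both fits were also run on simulated data with the same spread for every gene. Deviations there were either independent or shared equally at all numbers, unlike the values here, so that run cannot vouch for the paired fit.

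The members and gene lists were chosen with earlier results of these data known. Named are all 42 members and, of each pathway list and the cell cycle list, the 3 genes with the smallest unadjusted p. The same rule was set for the marker lists, but not all of those genes are named here. Values in every library were to be printed for members past the threshold without the block and for the 6 sensors. As no member passed, they are printed for those past it with the block and for others of interest. Promoters were likewise taken from members past it with the block. Alternatives were the block, the pseudocount, the filter, no table term, median-ratio scaling and leaving out libraries. Settings that combine the block with another choice were added after seeing the data. A result on 1 marker gene is not reported here.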

Additional observations from a re-analysis of the deposited data

Results flagged for a closer look

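In 84 groups of 4 libraries (42 genes in each population), a library stood apart from the other 3 of its population in 13. The gap to the nearest library exceeded Dixon's critical share of the range in each. That rule flags about 1 in 20 groups of independent, normally distributed values. These genes share the same libraries, so the 13 are a description and cannot be weighed against that share. Of the 13, 12 lay in the libraries numbered 2.

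In Ebi3-Treg 2, Xbp1 was at 359.8 FPKM (the other 3 at 182 to 210.0), Hsp90b1 at 202 (133 to 141), Dnajb11 at 158 (104 to 109) and Creld2 at 61.4 (32.0 to 35.6). In the same library Selenos was at 225 (94.8 to 97.4), Ssr2 at 183 (66.6 to 85.6) and Spcs2 at 211 (122 to 133), and Sel1l was the lowest at 28.3 (52.1 to 55.7). In Blimp1-Treg 2, Dnajb9 was at 69.1 FPKM (45.7 to 49.2), Pdia3 at 1307 (887 to 948), Selenos at 242 (77.5 to 104) and Sar1a at 81.1 (53.7 to 57.1). Ern1 in Ebi3-Treg 1 was at 12.1 FPKM (2.57 to 3.24). These libraries' part in the differences between populations was not tested beyond the values without them.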

How the results depend on the processing

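Of the 42 ER genes, 0 passed with a table term and 11 with the replicate block, 1 at a pseudocount of 0.01 (5.96% of all genes passed there), 1 with a filter at 5 FPKM (6.26%) and 3 after median-ratio scaling (6.99%). Without both libraries numbered 1 the count was 8, without both numbered 2 it was 11, and leaving out single libraries gave 0 to 1. With the block, it was 7 without both libraries numbered 1 and 7 without both numbered 4. The count of all genes called was 772, and 2752 with the replicate block, 420 with no filter, 441 with no table term, 1970 without both libraries numbered 1, 1962 without both numbered 2 and 341 to 771 when single libraries were left out. For libraries 1 and 2 alone, 0 ER genes passed, and 13 with the replicate block (23.3% of all genes). For libraries 3 and 4 alone, 4 passed, and 8 with the replicate block (11.5% of all genes). Among the other pathway genes 5 passed, 25 with the replicate block, 2 with no filter, with no table term or after scaling, 17 and 18 without both libraries numbered 1 or 2, and 2 to 6 when single libraries were left out.

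Of the 42, 27 kept their direction in all 18 settings, and 15 reversed in some, none of them beyond 0.21 on the log2 scale in the main setting. The block, the filter and dropping the table term do not alter a gene's log2 fold change in this balanced design. Agreement of direction in those settings was therefore fixed in advance. After median-ratio scaling the log2 fold change was -0.0004 for Hspa5, -0.0419 for Hyou1, -0.054 for Ero1l, -0.033 for Syvn1, -0.0188 for Ssr2 and -0.0342 for Sar1a. Without both libraries numbered 2 it was -0.0192 for Hyou1, -0.0614 for Syvn1, 0.0938 for Sec61g, -0.0452 for Ssr2 and 0.0551 for Sec11c, and without both numbered 1 it was -0.10 for Ero1l. When single libraries were left out it ranged from -0.49 to 0.26 for Ern1, -0.0725 to 0.23 for Hspa5, -0.25 to 0.29 for Hyou1, -0.22 to 0.0239 for Pdia3, -0.10 to 0.0898 for Ero1l, -0.0002 to 0.17 for Herpud1 and -0.34 to 0.0017 for Sel1l. It ranged from -0.23 to 0.24 for Syvn1, -0.12 to 0.36 for Selenos, -0.36 to 0.15 for Sec61b, -0.53 to 0.31 for Sec61g, -0.16 to 0.27 for Ssr2, -0.17 to 0.0652 for Ssr4, -0.19 to 0.18 for Sec11c and -0.0895 to 0.14 for Sar1a. Outside the 42 it ranged from -0.11 to 0.87 for Klrd1, -0.0349 to 0.22 for Cd8b1, -0.54 to 0.10 for Col1a1, -0.24 to 0.0501 for Foxp3 and -0.28 to 0.0033 for Cd4. The cause was not tested. The lowest value of the 42 genes in a single library was 2.32 FPKM. The part of depth was not tested, and 4 libraries per population limit the precision.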
